A study of Mus musculus with 12 samples.

Results

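The genes described here encode the proteasome. They were chosen by symbol: every gene of the array annotation whose symbol begins with Psma, Psmb, Psmc, Psmd, Psme, Psmf or Psmg and a number, 48 of 18524 annotated genes. Of these, 46 are proteasome genes, and 2 (Psmc3ip and Psme3ip1) carry such a symbol without encoding a proteasome subunit. The study used E14tg2a mouse embryonic stem (ES) cells of strain 129/P2, grown in GMEM with LIF and FCS. The Tcf15-E47 line carries a doxycycline (dox) inducible fusion of Tcf15, a mesoderm transcription factor of the basic helix-loop-helix class, to its partner E47, and was measured after 0, 8, 12 and 24 h of dox. The parental control line was measured after 0 and 8 h. Dox was added at 1 µg/mL, and each of the 6 groups had 2 arrays, 12 in all. No parental arrays cover 12 or 24 h, so at those times the fusion cannot be told apart from dox itself or from time in culture. The labels do not say whether the 2 arrays of a group came from separate cultures, so p-values measure only the spread between arrays, which may be technical. The Tcf15-E47 line is given as a single line with no count of clones, so a difference from the parental line cannot be told apart from a difference between clones.

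The proteasome degrades proteins tagged with ubiquitin. Its 20S core is a barrel of outer alpha rings and inner beta rings, with the proteolytic sites on Psmb5, Psmb6 and Psmb7, and it is capped by the 19S particle, in which Psmc ATPases unfold the substrate and Psmd non-ATPase subunits bind and deubiquitinate it. Dedicated chaperones build the core (Psmg genes) and the base of the cap (Psmd5, Psmd9, Psmd10). In the immunoproteasome, Psmb8, Psmb9 and Psmb10 replace the standard catalytic subunits, and Psme1 with Psme2 form the PA28 activator. These 5 genes are known to be induced by interferon gamma and to serve peptide supply to MHC class I. The standard subunits are known to be regulated together by the transcription factor Nrf1 (gene Nfe2l1).

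Values are normalised intensities on the log2 scale, taken for each gene from the probe with the highest mean over the 12 arrays. Genes entered the test where 2 or more arrays gave that probe a detection p below 0.01, and were called if limma's adjusted p was under 0.05. Replicate arrays correlated at 0.994 to 0.997, and 30.7 to 34.7% of probes were detected per array. The probe for Tcf3, the gene that encodes E47, was 1.39 higher at 12 h than at 0 h (limma adjusted p = 0.00154) and 0.93 higher at 24 h (adjusted p = 0.023). The 24 h call was lost with no filter on detection (adjusted p = 0.091) and without replicate 1 or 2 at 0 h or replicate 2 at 24 h, where the differences were 0.87, 0.99 and 0.68 and the adjusted p 0.141, 0.0941 and 0.166. At 8 h it was 1.19 higher with adjusted p = 0.1. The probe for Tcf15 differed by 0.03 at 8 h, -0.04 at 12 h and 0.10 at 24 h, and was not called. Where either probe lies relative to the fusion is not given in the sources used here. Nanog, a pluripotency factor, fell by 1.14 at 12 h (adjusted p = 5.21e-05) and by 0.99 at 24 h (adjusted p = 0.000141). All 8 ES cell markers on the array were detected. Of 5 blood cell markers, Ptprc, Cd52 and Tyrobp were detected on 0 arrays, and Coro1a and Laptm5 on all 12. Of 7 fibroblast markers, Thy1 was detected on all 12 arrays and Dcn on 9. Col1a1 and Col1a2 were detected on 1 array, the parental 8 h replicate 2, at 5.83 and 5.85, against at most 4.57 on the other 11. That array was also the highest for Thy1 (7.34) and Col3a1 (4.80, not detected), so the counts of calls that rest on it are given with and without it. In these bulk samples fewer cells of a type and less RNA per cell cannot be told apart.

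Of the 48 genes, 43 were tested, 41 of them proteasome genes. Psma1, Psma6, Psmb11, Psmd3 and Psmg4 were detected on 0 arrays by their probes and were not tested. Psmb11 is the beta subunit of the thymus, whereas Psma1, Psma6 and Psmd3 are parts of every standard proteasome, so absence of signal from those probes is no measure of absence of the gene. Of the tested genes, 40 were detected on all 12 arrays, and Psmc6, Psmd2 and Psmd9 on 7, 10 and 9. Replicates were close together. The median SD between replicate arrays was 0.0891 over the 41 proteasome genes and 0.118 over all 10084 genes tested.

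The spread over the 6 groups was read as the span from the lowest to the highest group mean, which was not taken over all genes. It had a median of 0.24 over the 41 proteasome genes, from 0.07 for Psma2 to 0.81 for Psme1. It exceeded 0.5 in 5 genes (Psmb8, Psmc6, Psmd5, Psme1 and Psmg3). Of these, Psmb8, Psmc6 and Psmd5 had low mean values of 5.41, 5.0 and 6.13, and Psme1 and Psmg3 had 9.57 and 8.47. Whether the spans follow the signal level was not tested. By class the median span was 0.14 in the alpha ring, 0.17 in the beta ring, 0.18 in the 19S ATPases, 0.24 in the 19S non-ATPases, 0.23 in the 2 other activators, 0.28 in the 3 chaperones of the 20S core, 0.45 in the 5 immunoproteasome genes and 0.47 in the 3 chaperones of the 19S base. Few members were called. In Tcf15-E47 cells 0 of 43 were called at 8 h against 0 h (0.0298% of all genes were called in that comparison), 1 at 12 h (7.79% of all genes) and 0 at 24 h (4.09%). Between times, 1 or 2.33% was called at 12 h against 8 h (4.31% of all genes) and 3 or 6.98% at 24 h against 12 h (1.94%). In parental cells 0 were called at 8 h (0.0% of all genes). At an unadjusted p under 0.05 the counts in Tcf15-E47 cells were 0 at 8 h (4.26% of all genes passed), 7 or 16.3% at 12 h (23.9% of all genes) and 3 or 6.98% at 24 h (19.3%). In parental cells 3 members passed, or 6.98%, and 6.16% of all genes. At that unadjusted threshold the members' shares in Tcf15-E47 cells against 0 h were thus below those of all genes. The share called by adjusted p at 24 h against 12 h was above that of all genes (6.98%, against 1.94%). The members called were Psme1, Psmb8 and Psmg3.

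**Figure D1:**
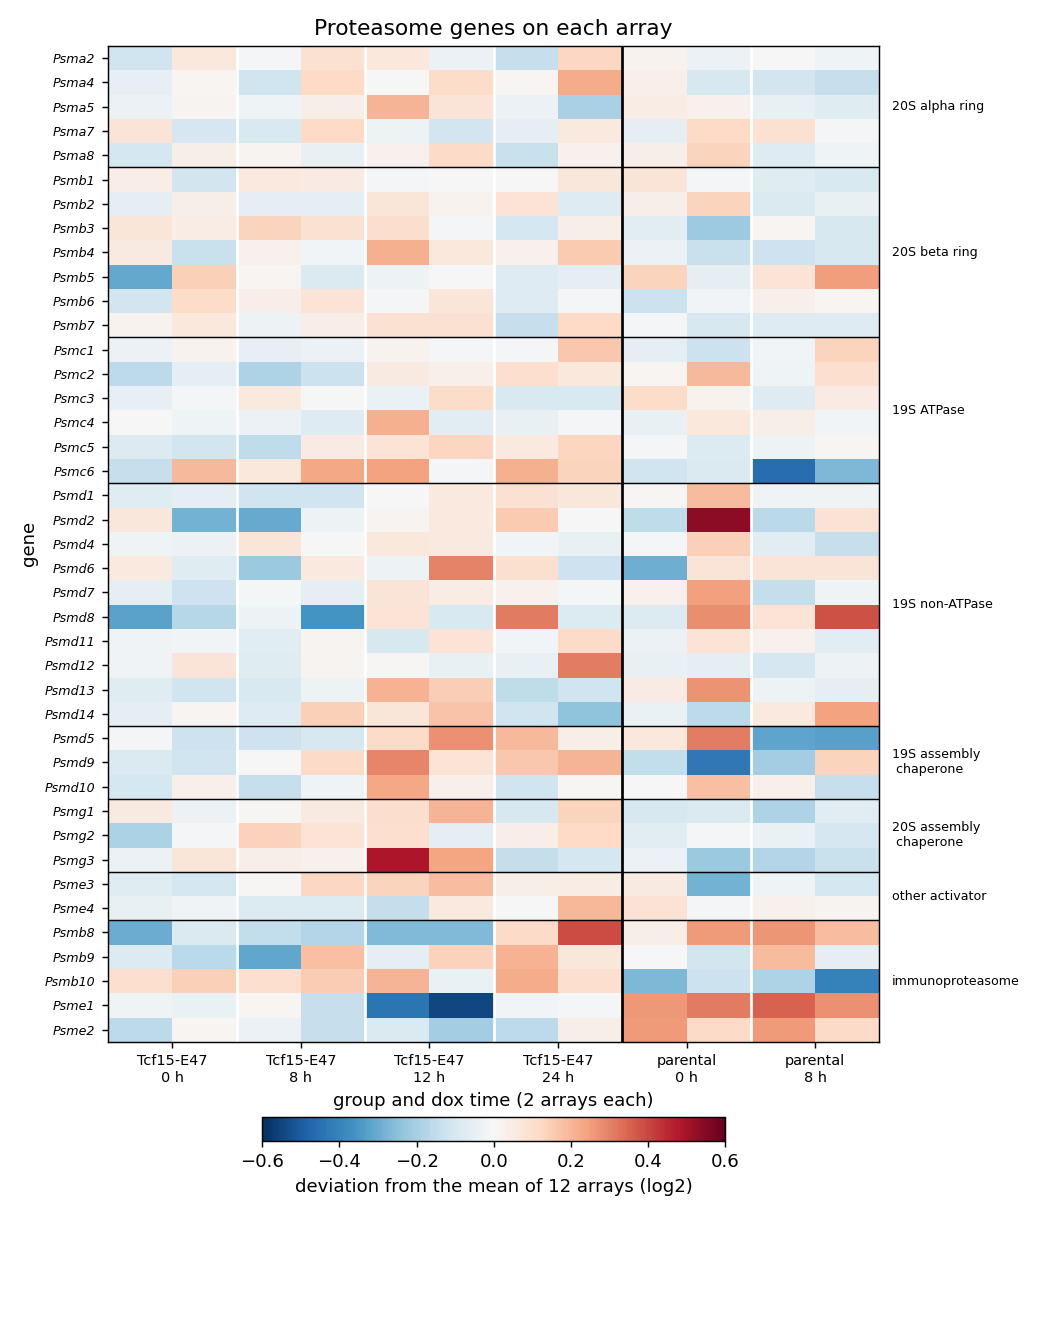
Each row is a proteasome gene, grouped by its place in the complex, and each column is an array. Colour gives the deviation from that gene's mean of 12 arrays on the log2 scale. Most rows are pale, while Psme1 is lowest on the 2 arrays at 12 h and Psmg3 is highest there.

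The alpha ring forms the gate of the core. Its 5 tested genes (Psma2, Psma4, Psma5, Psma7 and the germ cell form Psma8) differed by -0.06 to 0.15 at 12 h and by -0.11 to 0.14 at 24 h, and none was called, with 0 of 5 past an unadjusted p under 0.05 at either time. Psma5 had 12.88 and 12.75 at 12 h, against 12.64 and 12.69 at 0 h, a difference of 0.15. At 24 h it had 12.64 and 12.48 and differed by -0.11 from 0 h. Psma7 differed by -0.06 at 12 h and Psma4 by 0.14 at 24 h. Psma2 gave 12.89 to 13.15 over all 12 arrays.

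The beta ring carries the catalytic sites. Its 7 standard genes differed by -0.01 (Psmb3) to 0.18 (Psmb4) at 12 h and by -0.10 (Psmb3) to 0.13 (Psmb4) at 24 h, and 0 were called by limma, with 0 past an unadjusted p under 0.05. The catalytic subunit genes Psmb5, Psmb6 and Psmb7 differed by 0.07, 0.03 and 0.05 at 12 h. Psmb4, a non-catalytic subunit, had 13.19 and 13.04 at 12 h, against 13.03 and 12.84 at 0 h. These arrays were just apart, and all 12 arrays of Psmb4 lay between 12.84 and 13.19. No 95% interval of the 12 core genes reached beyond 0.40 in either direction at 12 h, or 0.38 at 24 h.

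In the 19S cap, 15 of 16 tested genes had a positive difference at 12 h against 0 h, with a median of 0.12, and 0 were called. Over all genes tested, 5174 of 10084 had a positive difference and 7.79% were called. The 6 ATPases, the motor that feeds the core, ranged from 0.01 (Psmc1) to 0.19 (Psmc5). Psmc5 had 11.18 and 11.23 at 12 h, against 11.02 and 10.99 at 0 h, and these arrays did not overlap. At 24 h the ATPases ranged from -0.06 (Psmc3) to 0.19 (Psmc2). The 10 non-ATPases ranged from -0.05 (Psmd12) to 0.28 (Psmd13) at 12 h, and from -0.15 (Psmd14, the deubiquitinase of the cap) to 0.36 (Psmd8) at 24 h.

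Psmd13, a subunit of the lid, had the largest 19S difference at 12 h. Its values in Tcf15-E47 cells were 11.71 and 11.66 at 0 h, 11.69 and 11.75 at 8 h, 11.99 and 11.93 at 12 h and 11.63 and 11.66 at 24 h, and in parental cells 11.83 and 12.05 at 0 h and 11.75 and 11.72 at 8 h. Both 12 h arrays lay above every other Tcf15-E47 array, and within the range reached by the parental arrays at 0 h. The difference was 0.28 at 12 h against 0 h (95% interval 0.06 to 0.49, adjusted p = 0.108) and -0.31 at 24 h against 12 h (adjusted p = 0.126). It was called in both with trended, robust moderation and with the authors' normalised values, where the adjusted p at 12 h was 0.0264 and 0.0271. Psmd8, another lid subunit, had 6.90 and 6.51 at 24 h, against 6.27 and 6.42 at 0 h (difference 0.36, adjusted p = 0.257).

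The assembly chaperones had median differences at 12 h of 0.26 for the 19S base and 0.14 for the 20S core, both over 3 genes. The 3 chaperones of the 19S base differed by 0.17 (Psmd10), 0.26 (Psmd5) and 0.29 (Psmd9) at 12 h, and by -0.01, 0.18 and 0.29 at 24 h, with 0 called. Psmd9 had 5.41 and 5.20 at 12 h, against 5.03 and 5.0 at 0 h (adjusted p = 0.204). The 3 chaperones of the 20S core, Psmg1, Psmg2 and Psmg3, differed by 0.14, 0.12 and 0.34 at 12 h. At 24 h Psmg2 differed by 0.18 and Psmg3 by -0.14.

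Psmg3, which pairs with Psmg4 in the building of the alpha ring, fell between 12 and 24 h. Its values in Tcf15-E47 cells were 8.43 and 8.54 at 0 h, 8.50 and 8.49 at 8 h, 8.95 and 8.70 at 12 h and 8.32 and 8.36 at 24 h, and in parental cells 8.43 and 8.24 at 0 h and 8.29 and 8.33 at 8 h. Both arrays at 12 h lay above the other 10, and both arrays at 24 h lay below the other Tcf15-E47 arrays. The difference at 24 h against 12 h was -0.48 (SE 0.109, 95% interval -0.72 to -0.25, 1.4-fold lower, limma adjusted p = 0.0446). At 12 h against 0 h it was 0.34 (adjusted p = 0.0782). The call was lost when any of the 4 arrays compared was left out, with differences of -0.61 to -0.36. With all arrays kept it held in 3 of 7 other settings. The limma adjusted p was 0.295 with median scaling (difference -0.43), 0.0731 with no filter on detection, 0.0546 with the replicate block and 0.0972 on only the arrays compared.

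Of the activators outside PA28 alpha and beta, Psme3 (PA28 gamma, a nuclear activator) had 10.97 and 11.02 at 12 h, against 10.76 and 10.73 at 0 h, a difference of 0.25 with adjusted p = 0.2. Psme4 (PA200) differed by -0.01 at 12 h and 0.13 at 24 h. Neither was called in any of the comparisons. Of the 2 genes that encode no proteasome subunit, Psmc3ip is a partner of the meiotic recombinase. It had 9.84 and 9.83 at 12 h, against 9.56 and 9.44 at 0 h (difference 0.33, limma adjusted p = 0.124). Psme3ip1 differed by 0.03 at 12 h.

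Of the members called between dox times, Psme1 and Psmb8 were immunoproteasome genes and Psmg3 was not. The calls of Psme1 all used the same arrays at 12 h. Psme1, the alpha subunit of PA28, fell at 12 h and rose again between 12 and 24 h. Its values in Tcf15-E47 cells were 9.54 and 9.53 at 0 h, 9.58 and 9.43 at 8 h, 9.13 and 9.02 at 12 h and 9.55 and 9.56 at 24 h, and in parental cells 9.83 and 9.88 at 0 h and 9.92 and 9.84 at 8 h. Both arrays at 12 h were below the other 10. The difference at 12 h was -0.46 against 0 h (SE 0.0947, 95% interval -0.67 to -0.26, 1.38-fold lower, limma adjusted p = 0.0118) and -0.43 against 8 h (adjusted p = 0.0247). At 24 h Psme1 was 0.48 above 12 h (SE 0.0947, adjusted p = 0.0312) and 0.02 above 0 h.

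These Psme1 calls rest on 2 arrays a group. Each was lost when any of the 4 arrays compared was left out, the direction being the same each time. For 12 h against 0 h the differences were then -0.52 to -0.41 and the adjusted p 0.0535 to 0.094. Median scaling in place of quantile normalization gave -0.34 with adjusted p = 0.259. A fit on only the arrays compared kept the call at 12 h against 0 h, and lost those against 8 h (adjusted p = 0.0615) and at 24 h against 12 h (adjusted p = 0.0808). The other Psme1 probe was lower at 12 h than at 0 h (difference -0.23, adjusted p = 0.248) and 0.43 higher at 24 h than at 12 h (adjusted p = 0.0854), so its differences ran the same way without being called. Markers of primitive endoderm, a lineage that ES cultures can form, also moved at 12 h. Of 7 such markers 5 were tested, with Gata4 and Sox17 detected on 0 arrays. All 5 tested markers were lower at 12 h than at 0 h. Of them 3 were called (Dab2, Lama1 and Col4a1), as were 7.79% of all genes. At 24 h these 3 differed from 0 h by -0.08, -0.84 and -0.38. The summed intensity of all 7 markers was 336 to 354 at 12 h and 358 to 361 at 24 h, against 487 on both arrays at 0 h. The part of these cells in the Psme1 result was not tested.

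**Figure D2:**
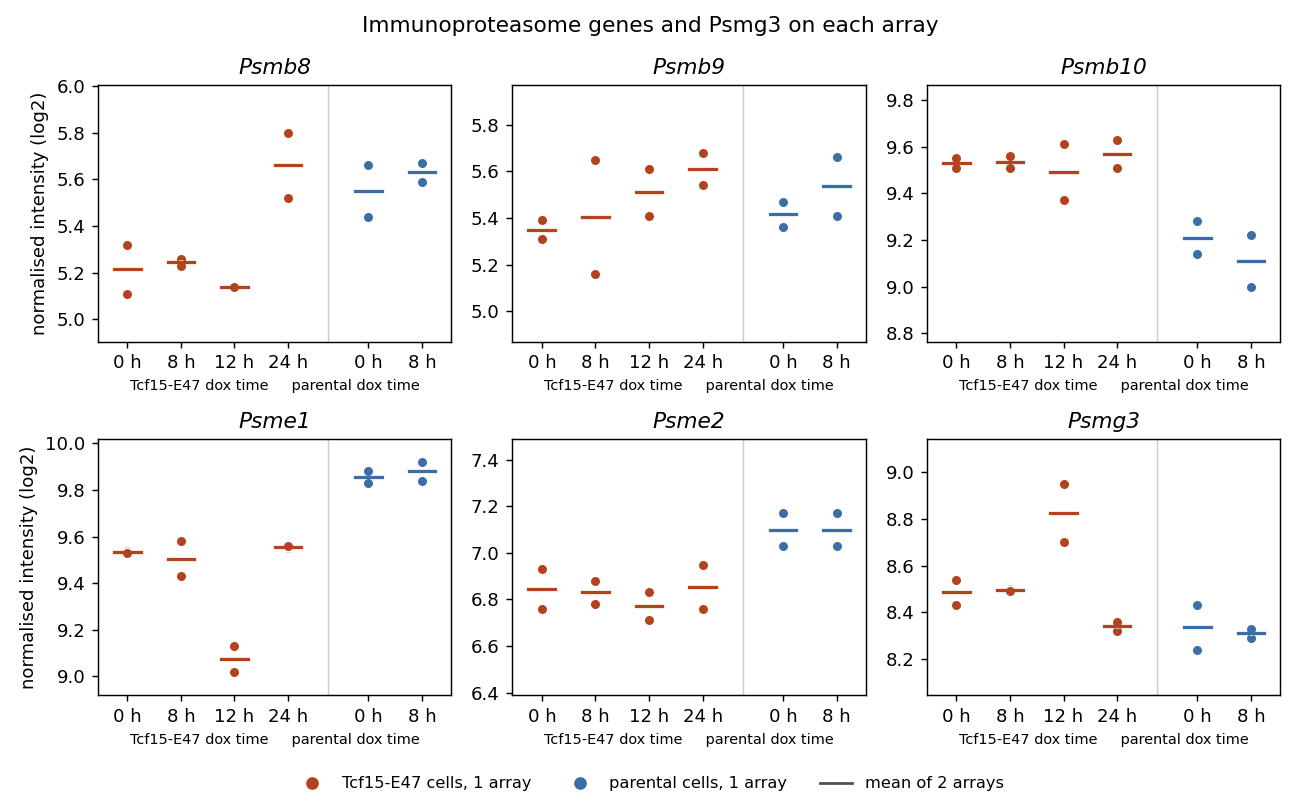
Normalised intensity (log2) of the 5 immunoproteasome genes and Psmg3 on each array, by dox time, with Tcf15-E47 cells left of parental cells. Points are arrays and bars are means of 2 arrays. Psme1 dips to 9.13 and 9.02 at 12 h, and Psmb8 reaches 5.52 and 5.80 at 24 h.

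Psme2, the beta subunit that assembles with Psme1, was called at no time. It had 6.83 and 6.71 at 12 h, against 6.76 and 6.93 at 0 h, a difference of -0.07 (95% interval -0.31 to 0.17), and these arrays overlapped. At 24 h it differed by 0.01. Whether Psme1 and Psme2 differed from each other in their response was not tested, since they were read by different probes.

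Psmb8, the immunoproteasome counterpart of Psmb5, rose between 12 and 24 h. In Tcf15-E47 cells it had 5.11 and 5.32 at 0 h, 5.26 and 5.23 at 8 h, 5.14 and 5.14 at 12 h and 5.52 and 5.80 at 24 h, and in parental cells 5.44 and 5.66 at 0 h and 5.67 and 5.59 at 8 h. The 24 h arrays lay above the other 6 Tcf15-E47 arrays and overlapped the parental ones. The difference was 0.52 at 24 h against 12 h (SE 0.12, 95% interval 0.26 to 0.78, 1.43-fold, limma adjusted p = 0.0475) and 0.45 at 24 h against 0 h (adjusted p = 0.0614). The call at 24 h against 12 h was lost when any of the 4 arrays was left out (adjusted p 0.0629 to 0.261). The call held in 2 of 7 other settings. On the authors' normalised values, which carry the background, the difference was 0.19 (limma adjusted p = 0.111). The adjusted p was 0.0614 with median scaling, 0.0994 with no filter on detection, 0.0539 with trended, robust moderation and 0.0869 on only the arrays compared. The signal of Psmb8 before background correction was low, at 105 to 149 over the 12 arrays. Mean background was 85.87 to 98.75.

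Psmb9, whose gene lies beside Psmb8 in the MHC region, had 5.68 and 5.54 at 24 h, against 5.39 and 5.31 at 0 h. These arrays did not overlap, and the difference was 0.26 (95% interval -0.06 to 0.58, adjusted p = 0.371). Its 2 arrays at 8 h lay far apart, at 5.16 and 5.65. Psmb10, the counterpart of Psmb7, had 9.51 and 9.55 at 0 h, 9.61 and 9.37 at 12 h and 9.63 and 9.51 at 24 h, and differed from 0 h by -0.04 at 12 h and 0.04 at 24 h.

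The 36 tested proteasome genes outside the immunoproteasome had small differences at 12 h that were mostly positive. Their median deviation from each gene's mean was -0.05 and -0.02 on the 0 h arrays of Tcf15-E47 cells, -0.03 and 0.02 at 8 h, 0.07 and 0.06 at 12 h and -0.01 and 0.04 at 24 h. On parental arrays it was -0.01 and -0.01 at 0 h and -0.04 and -0.03 at 8 h. The median difference at 12 h against 0 h was 0.10, with 32 of 36 positive. Over all genes it was 0.01, with 5174 of 10084 positive. The 2 arrays at 12 h lay above both at 0 h for 18 of all 43 members (41.9%; 29.6% of all genes did so) and below both for 1 (2.33%; 27.8% of all genes). At 24 h they lay above both for 14 members (32.6%; 24.1% of all genes) and below for 4 (9.3%; 24.4%). Of the 36 genes 0 were called at 12 h by limma, and 5 (13.9%) passed an unadjusted p under 0.05, which 23.9% of all genes did. Median scaling moved the median of all genes by 0.101 at 24 h and by 0.0999 at 12 h, and gave the members a median of 0.22 at 12 h and 0.19 at 24 h in place of 0.09 and 0.07. The 24 h median was 0.01 without replicate 2 at 24 h and 0.10 without replicate 1.

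**Figure D3:**
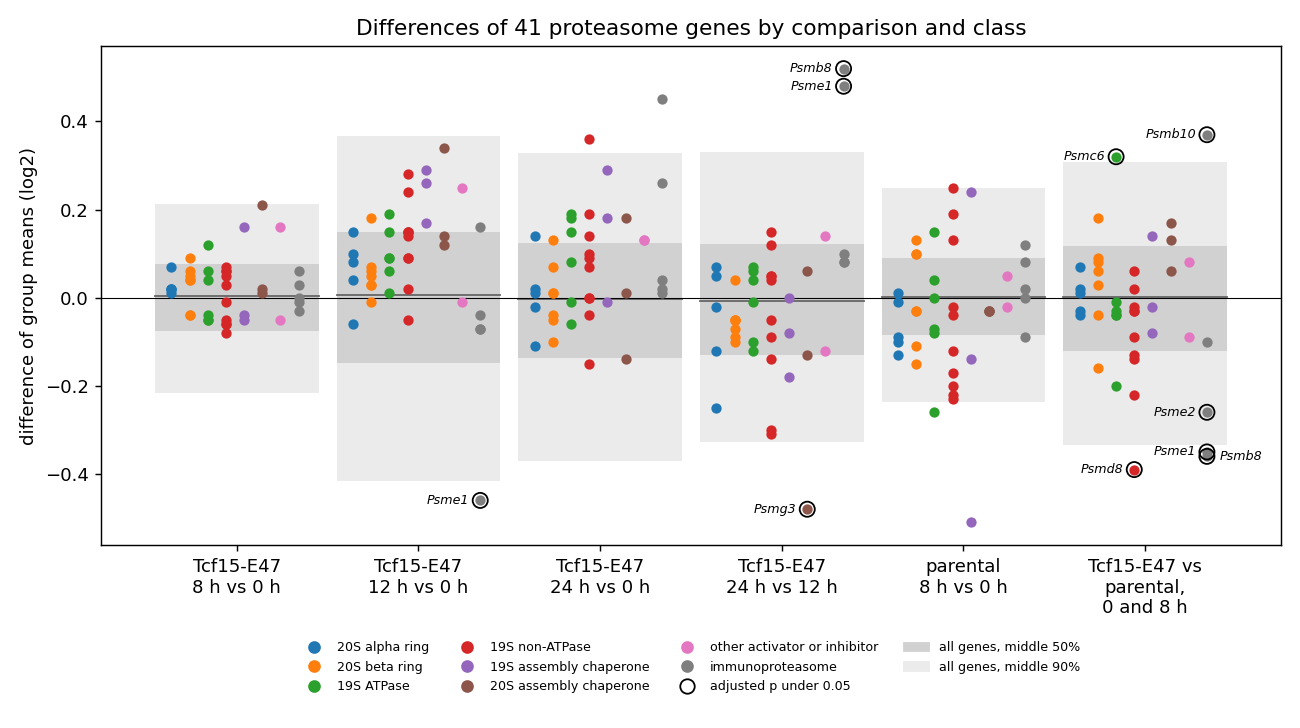
Differences of group means (log2) of the 41 proteasome genes in 6 comparisons, coloured by class, over grey bands that hold the middle 50% and 90% of all genes tested. Circled points passed adjusted p under 0.05. At 12 h most points lie between 0 and 0.34, and Psme1 lies at -0.46.

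Dox was also examined in the parental line. No arrays cover 8 h without dox, so dox cannot be told apart there from time in culture. Against 0 h, the 8 h arrays had a median difference of -0.03 over the 43 members. Of the members 16 had a positive and 27 a negative difference, and of all genes 5113 had a positive and 4971 a negative one. Psmd5 had 5.81 and 5.80 at 8 h, against 6.19 and 6.43 at 0 h, a difference of -0.51 with unadjusted p = 0.000563 and adjusted p = 0.598. In Tcf15-E47 cells Psmd5 had 6.0 and 6.03 at 8 h, against 6.12 and 6.0 at 0 h. The test of whether the 8 h response differed between the lines called 0 members (0.0% of all genes were called), with 1 member (2.33%), Psmd5, past an unadjusted p under 0.05, which 5.23% of all genes passed. Without the parental 8 h replicate 2 the counts of calls in parental cells and in that test were also 0. The widest 95% interval bound of any member in that test was 0.80.

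Without dox, Tcf15-E47 cells were compared with parental cells, and limma called 0 of 43 members (5.05% of all genes), with 7 (16.3%) past an unadjusted p under 0.05, which 22.2% of all genes passed. These 7 were Psmb8, Psmb10, Psme1, Psme2, Psmd5, Psmd7 and Psmd13, and 4 of them belong to the 5 immunoproteasome genes. The Tcf15-E47 arrays lay above both parental arrays for 7 members (16.3%; 24.2% of all genes) and below both for 13 (30.2%; 25.0% of all genes).

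After these values had been seen, the 4 Tcf15-E47 arrays at 0 and 8 h were set against the 4 parental arrays at 0 and 8 h in the same fit. In this added comparison 6 of 43 members were called, and 14.5% of all genes. That share of members is near the share of all genes. Of the 6, 4 were immunoproteasome genes, the same 4 that had passed limma's unadjusted p under 0.05 without dox. The added comparison was chosen with those values known and reused the same 0 h arrays. Its calls of these 4 genes are therefore not independent of the comparison without dox, and their adjusted p does not allow for that choice. Psmb10 was higher by 0.37, and Psme1, Psmb8 and Psme2 were lower, with differences of -0.35, -0.36 and -0.26. The limma adjusted p was 0.009 for Psmb10, 0.00535 for Psme1, 0.0139 for Psmb8 and 0.0424 for Psme2. Psmb9 differed by -0.10 and was not called. All 4 Tcf15-E47 arrays lay above all 4 parental arrays for 3 members (9.55% of all genes) and below them for 6 (11.2% of all genes).

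Psmb10 had 9.51 to 9.56 on the 4 Tcf15-E47 arrays at 0 and 8 h, against 9.0 to 9.28 on the 4 parental arrays. Its other probe gave the same difference of 0.37 (adjusted p = 0.00926). Psme1 had 9.43 to 9.58 on the Tcf15-E47 arrays, against 9.83 to 9.92 on the parental ones, and its other probe gave -0.55 (adjusted p = 0.00118). Psme2 had 6.76 to 6.93 on the Tcf15-E47 arrays, against 7.03 to 7.17 on the parental ones. For these 3 genes the 12 and 24 h arrays fell on the same side, so that all 8 Tcf15-E47 arrays lay apart from all 4 parental ones. Over all genes 4.18% lay higher and 6.04% lower in this way. Psmb8 had 5.11 to 5.32 on the Tcf15-E47 arrays at 0 and 8 h, against 5.44 to 5.67 on the parental ones, and its Tcf15-E47 arrays overlapped the parental ones at 24 h only.

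Outside the immunoproteasome, Psmd8 was 0.39 lower (difference -0.39, adjusted p = 0.0455), with arrays that overlapped (6.23 to 6.56 in Tcf15-E47 cells, against 6.51 to 6.97 in parental cells). Psmc6, an ATPase of the cap, was higher (adjusted p = 0.0353), but its probe was not above background on any of the 4 parental arrays, and it was above background on 3 of the 4 Tcf15-E47 arrays. Set against the lowest value with a detection p below 0.01 on each parental array, Psmc6 was at least 1.08-fold higher. Its call held in 3 of 7 other settings, and on the authors' values the difference was 0.10 (limma adjusted p = 0.146). The 12 standard core genes differed by -0.16 (Psmb5) to 0.18 (Psmb3), and 0 were called. Psmb3 gained a call with median scaling (difference 0.4, limma adjusted p = 0.019), with trended, robust moderation (0.0212) and on the authors' values (0.0237). In the cap, Psmc2 (difference -0.2) gained one with trended, robust moderation (limma adjusted p = 0.0132) and on the authors' values (0.0131). Psmd1 (difference -0.14) gained one on the authors' values (limma adjusted p = 0.041). The call of Psmb10 held in all 7 other settings and in all 8 fits that left out an array. That of Psme1 held in 6 of 7 settings and in 8 of 8 left-out fits, and was lost with median scaling (difference -0.22, adjusted p = 0.25). Psmb8 was lost without the array of the 0 h replicate 1 of Tcf15-E47 cells (adjusted p = 0.0588), with median scaling (adjusted p = 0.0937) and on the authors' values (adjusted p = 0.0509). The Psme2 call held in 3 of 7 settings and 1 of 8 left-out fits, with differences of -0.30 to -0.22 and adjusted p up to 0.138 in the left-out fits. Those of Psmd8 and Psmc6 each held in 3 of 8 left-out fits, with adjusted p up to 0.159 and 0.134. Without the parental 8 h replicate 2, Psmb10, Psmb8, Psmc6 and Psme1 were called, and Psme2 (difference -0.29, adjusted p = 0.0618) and Psmd8 (-0.31, adjusted p = 0.151) were not.

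Other differences ran between the same lines. All 5 tested primitive endoderm markers were lower in Tcf15-E47 cells, and 3 were called (Dab2, Col4a1 and Sox7), as were 14.5% of all genes. The summed intensity of all 7 markers was 427 to 487 on the Tcf15-E47 arrays at 0 and 8 h, against 546 to 666 on the parental ones. Of the 7 fibroblast markers 2 were tested. Dcn was 0.83 higher (adjusted p = 0.000817), detected on all 4 Tcf15-E47 arrays and on 1 of 4 parental ones, and Thy1 differed by -0.15 (adjusted p = 0.323). Col3a1, Lum and Postn were detected on 0 arrays, and Col1a1 and Col1a2 on the parental 8 h replicate 2 alone. The summed intensity of the 7 was 257 to 269 on the Tcf15-E47 arrays at 0 and 8 h, against 243 to 373 on the parental ones. Of the 5 blood markers 2 were tested. Laptm5 was lower (difference -0.37, adjusted p = 0.00781) and Coro1a differed by 0.15 (adjusted p = 0.195). The summed intensity of the 5 was 2070 to 2130 on the Tcf15-E47 arrays, against 2560 to 2710 on the parental ones. Laptm5 made up most of this sum. In Tcf15-E47 cells at 0 h it averaged 10.93 on the log2 scale, against 7.02 for Coro1a. Ptprc, Cd52 and Tyrobp were not detected. The part of these markers in the immunoproteasome result was not tested.

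**Figure D4:**
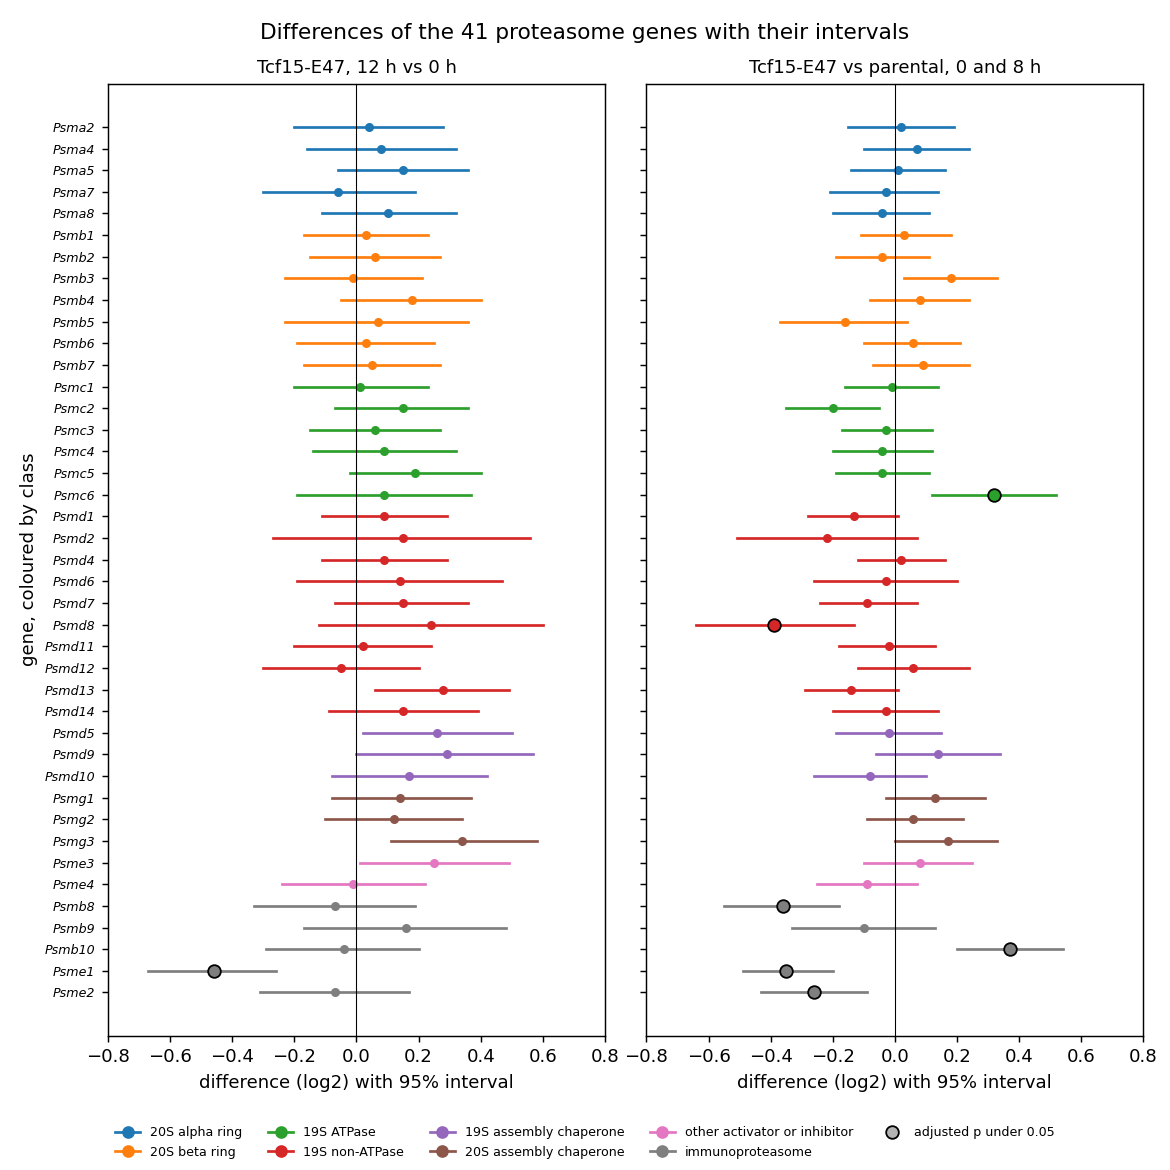
Differences (log2) with 95% intervals for the 41 proteasome genes at 12 h against 0 h in Tcf15-E47 cells (left) and between the Tcf15-E47 and parental lines over 0 and 8 h (right). Large outlined points passed adjusted p under 0.05. The called genes are Psme1 on the left, and Psmc6, Psmd8, Psmb8, Psmb10, Psme1 and Psme2 on the right.

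Genes that work with the proteasome or with the immunoproteasome were read from lists. Of 10 tested proteasome-associated genes, among them the core maturation factor Pomp, the cap subunit Sem1 and the deubiquitinases Uchl5 and Usp14, 0 were called in any comparison. At 12 h Pomp differed by 0.08, Sem1 by -0.12, Uchl5 by -0.02 and Usp14 by 0.05, and 1 of the 10 passed an unadjusted p under 0.05. Of 7 tested genes of the Nrf1 pathway, 0 were called at 12 or 24 h, and 0 and 1 passed an unadjusted p under 0.05. Nfe2l1 itself had 9.79 and 9.81 at 12 h, against 9.98 and 10.04 at 0 h, a difference of -0.21 with adjusted p = 0.333. Sel1l, an adaptor of the endoplasmic reticulum ubiquitin ligase, was the sole gene of this list called between the lines over 0 and 8 h (difference -0.22, adjusted p = 0.0445), and that call was lost in at least 6 of 8 left-out fits. Of 8 tested genes around the p97 segregase, which pulls ubiquitinated proteins out of complexes, 0 were called in any comparison. Vcp, which encodes p97, differed by 0.03 at 12 h and 0.29 at 24 h, and 1 gene of the list passed an unadjusted p under 0.05 at 24 h.

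Of the MHC class I list, 4 genes were tested and 1 was called. Irf1, a transcription factor of the interferon response, rose. Its 2 arrays averaged 9.36 at 0 h, 9.75 at 12 h and 10.05 at 24 h, and the arrays of these times did not overlap. The difference was 0.39 at 12 h (adjusted p = 0.0297) and 0.68 at 24 h (adjusted p = 0.00248), and the 12 h call was lost when any of the 4 arrays was left out (adjusted p 0.117 to 0.146). B2m, the light chain of MHC class I, differed by -0.35 at 12 h (adjusted p = 0.195) and -0.04 at 24 h. H2-K1 and H2-D1, which encode heavy chains, differed by 0.05 and 0.19 at 12 h and were not called. The peptide transporter genes Tap1 and Tap2 and the class I regulator Nlrc5 were detected on 0 arrays.

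E47 and its partners are known to bind the E-box CANNTG. Shown are the promoters of the 3 members called between dox times (Psme1, Psmb8 and Psmg3), and of the 2 further members called between the lines that held a match (Psmb10 and Psmd8). Psmb10 did not pass the test at any dox time. Psmc6 and Psme2, also called between the lines, held no match. The 250 bases before the start site were taken from RefSeq (GRCm38.p6) for Psme1 at chr14:55578244-55578493 (plus strand), Psmb8 at chr17:34197945-34198194 (plus), Psmb10 at chr8:105938393-105938642 (minus), Psmd8 at chr7:29180674-29180923 (minus) and Psmg3 at chr5:139826895-139827144 (minus). They read 5′ to 3′ on the strand of the gene, and capitals mark each CANNTG, which is its own reverse complement in form and so was found on both strands at once:
Psme1: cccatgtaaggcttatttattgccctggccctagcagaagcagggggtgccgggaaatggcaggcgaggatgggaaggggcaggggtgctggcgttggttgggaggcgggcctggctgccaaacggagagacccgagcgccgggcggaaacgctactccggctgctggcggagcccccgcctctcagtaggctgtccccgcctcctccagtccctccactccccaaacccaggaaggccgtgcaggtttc
Psmb8: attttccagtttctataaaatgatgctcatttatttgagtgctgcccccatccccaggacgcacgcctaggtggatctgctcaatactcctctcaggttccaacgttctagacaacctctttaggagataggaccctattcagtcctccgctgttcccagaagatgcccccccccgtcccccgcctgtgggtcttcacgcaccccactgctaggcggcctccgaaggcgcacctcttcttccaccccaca
Psmb10: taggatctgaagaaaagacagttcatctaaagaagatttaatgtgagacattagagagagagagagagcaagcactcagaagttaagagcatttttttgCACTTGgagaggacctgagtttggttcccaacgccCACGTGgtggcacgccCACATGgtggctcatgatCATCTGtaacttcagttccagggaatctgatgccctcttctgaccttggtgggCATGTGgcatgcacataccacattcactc
Psmd8: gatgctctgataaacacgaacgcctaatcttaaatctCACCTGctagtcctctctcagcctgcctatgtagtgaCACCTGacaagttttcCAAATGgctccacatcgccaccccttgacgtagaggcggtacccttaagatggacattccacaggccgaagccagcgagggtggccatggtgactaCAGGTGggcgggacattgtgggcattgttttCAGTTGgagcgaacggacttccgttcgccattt
Psmg3: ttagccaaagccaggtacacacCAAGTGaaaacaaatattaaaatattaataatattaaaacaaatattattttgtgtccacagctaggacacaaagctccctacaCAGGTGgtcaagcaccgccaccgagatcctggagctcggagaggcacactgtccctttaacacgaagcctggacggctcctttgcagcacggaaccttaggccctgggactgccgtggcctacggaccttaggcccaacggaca
Psme1 and Psmb8 held no match in this window, Psmb10 and Psmd8 held 5 each and Psmg3 held 2. In Psmd8 3 of the 5 were CACCTG or its reverse complement CAGGTG. The CAGGTG of Psmg3 lay 144 to 139 bases before the start. Of the 48 members 40 had a promoter in the table, and 21 of these (52.5%) held CANNTG, against 69.3% of 27025 genes with the same window. The form CACCTG, counted with its reverse complement, was in 17.5% of the members and 19.4% of all genes. The palindrome CAGCTG was in 5.0%, against 14.7%. The interferon response motif GAAA, any 2 bases and GAAA, on either strand, was in 3 members (7.5%), namely Psmb3, Psmd4 and Psmd9, against 3.46% of all genes, and in none of the 5 promoters shown. A match is a description of letters and not a bound site.

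The authors' deposited table of comparisons, which tests single probes, holds 84 probes of these genes. At adjusted p under 0.05 it lists 0 of them at 8 h and 24 h in Tcf15-E47 cells and 0 at 8 h in parental cells. At 12 h the authors' deposited table lists Psme1 at -0.39 (adjusted p = 0.00206) and Psmd13 at 0.27 (adjusted p = 0.0427). Without dox the authors' deposited table runs parental over Tcf15-E47, and lists both Psme1 probes there, at 0.29 (adjusted p = 0.0127) and 0.41 (adjusted p = 0.0101).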

How the data were processed

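Per the labels' protocols, 100 ng of RNA per sample was amplified to biotin-labelled cRNA for Illumina BeadChips. The authors deposited average bead signal intensities and detection p-values per entry (per the file headers), not background subtracted as their values show. They also deposited quantile normalised log2 values and a table of log2 fold changes with adjusted p-values; the submitters' processing notes name limma. Entry names of the intensity table matched 0 of 38561 probes, so signals were recovered by value. Each entry was compared with the probes over the 12 arrays jointly (15136 of 30854 found one) and isotonic curves were fitted through them (scikit-learn 1.9.0). Held-out entries (7568) missed by a median of 7.41e-06 log2 units. Of 84 member probes 20 were matched directly and 64 read from the curves. Signals were then background corrected from detection p-values, offset by 16 and quantile normalised (limma 3.58.1, R 4.3.3).

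One limma model with a mean per group was fitted over 12 arrays and 10084 genes (8528 named), with Benjamini-Hochberg adjustment, two-sided, called at 0.05. The array count limits precision. Of all probes 32093 had a single gene, 16 several and 6452 none. There were 8 planned comparisons and 1 added later. The script was tested on simulated data. Same-numbered replicates did not deviate together (correlations -0.105 to 0.17), so they were not paired. The members and lists were chosen with earlier results of these data known. Named were members called in any comparison, the immunoproteasome genes, the extremes of each class at 12 and 24 h, and the members with the 3 highest and 3 lowest mean values. Further members and genes of other lists were named after their values were seen.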

Additional observations from a re-analysis of the deposited data

How the results depend on the processing

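The 2 arrays a group limit what could be called, and 5 members at background were not tested. Calls of members at 12 h against 0 h numbered 1, and 3 on the authors' normalised values and with trended, robust moderation, 0 with median scaling, and 0 to 0 when an array was left out. At 12 h against 8 h the count was 1, and 0 with median scaling, the mean of detected probes or only the arrays compared, and 0 to 0 with an array left out. At 24 h against 12 h it was 3, and 0 with median scaling or only the arrays compared, 1 with no filter on detection, and 0 to 0 with an array left out. For Tcf15-E47 against parental cells without dox it was 0, and 3 on the authors' values, 1 with the mean of detected probes and 2 with trended, robust moderation. In the added comparison over 0 and 8 h it was 6, and 2 with median scaling, 3 with no filter on detection, and 3 to 6 with an array left out. A fit with the replicate block gave 1 at 12 h against 0 h, 2 at 24 h against 12 h and 4 in the added comparison, and changed no call in the others; the numbers do not pair the arrays. The counts at 8 h, at 24 h against 0 h, in parental cells and in the test between lines were 0 in every setting. For the 28 named members no difference called in either setting changed its direction, 67 results lost their call and 20 gained one among 2996. The members' median between the lines changed sign with median scaling, to 0.08 without dox against -0.04, and to 0.12 against -0.03 over 0 and 8 h, where it was 0.01 with the mean of detected probes or without the 8 h replicate 1 of Tcf15-E47 cells. At 24 h it was 0.07, and 0.01 or 0.10 with an array of that time left out. At 8 h it was 0.02, and -0.01 or -0.02 when 1 of 2 arrays (0 h replicate 1, 8 h replicate 2) was left out. The cause of these changes was not tested.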
